A study of Bos taurus with 27 samples.

Results

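Immediate early genes are switched on within minutes of a stimulus, without new protein synthesis, and their transcripts are short-lived. FOS, FOSB and FOSL1 pair with JUN, JUNB or JUND to form the AP-1 transcription factors, EGR1 and ATF3 are transcription factors induced by growth signals and by stress, IER2 is a short nuclear protein induced by the same signals, and DUSP1 is a phosphatase that switches off the MAP kinases that induce the group. In stratified epithelia such as the rumen epithelium (RE), which lines the forestomach and absorbs volatile fatty acids, AP-1 factors take part in the growth and differentiation of keratinocytes. The 10 genes FOS, FOSB, FOSL1, JUN, JUNB, JUND, EGR1, ATF3, IER2 and DUSP1 were chosen by name, and each is carried by 1 probe of the customized bovine array, so that 10 of 15008 probes and 10 of 14952 gene names are described.

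Punch biopsies of the RE were taken from the ventral sac of 9 Japanese Black cattle when they were 14 months (early stage), 21 months (middle stage) and 29 months old (late stage of fattening), which gave 27 one-color arrays. The animals were bulls that had been castrated and fitted with a rumen fistula before the first biopsy, and they ate concentrate with rice straw at every stage, in amounts that differed between the stages. No group was kept on a constant diet, so that age, diet and stage cannot be told apart. The question was how the same animals changed from early to middle (first period), middle to late (second period) and early to late (total period), and how far the 9 biopsies of a stage differed among themselves.

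The probes are 60 bases long. For 5 genes a stretch of 30 bases is shown, while each measurement below rests on the whole probe. AU-rich elements are a known feature of unstable transcripts, and capitals mark the AU-rich pentamer (ATTTA) in JUNB and FOSL1 and the polyadenylation signal (AATAAA) in IER2. FOS and DUSP1, which held neither, are shown because they changed most in the first and second periods among the genes measured above background on every array.
FOS: agacctagggaggaccttatctgtgcgtga
DUSP1: tcttgtccctgtttcctgaagacacttttc
JUNB: ggtttctaaaggATTTAttttaatttgtgt
FOSL1: agcgtgggcagctgctATTTAttttcctaa
IER2: agaatcgccagataggaaAATAAAgaccaa
On the printed strand ATTTA occurred in 1017 of the 15008 probes (6.78%) and AATAAA in 1427 (9.51%), so a match is a description of the probe and says nothing about a factor bound there. The FOSB and EGR1 probes are printed whole, because these were the 2 dim probes of the group.
FOSB: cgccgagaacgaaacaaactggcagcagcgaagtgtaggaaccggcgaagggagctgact
EGR1: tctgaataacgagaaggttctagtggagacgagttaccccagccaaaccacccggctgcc

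In the files' own annotation (UMD 3.1), the FOS probe lies at chr10:86886459-86886518 on the plus strand and the DUSP1 probe at chr20:4449447-4449506 on the minus strand. Chromosome 7 holds 4 of the genes, namely JUNB (chr7:13851155-13851214, minus), IER2 (chr7:13543670-13543729, minus), JUND (chr7:4861537-4861596, plus) and EGR1 (chr7:51439997-51440056, plus). FOSL1 lies at chr29:44673305-44673364 (minus), FOSB at chr18:53504676-53504735 (plus), JUN at chr3:87842322-87842381 (plus) and ATF3 at chr16:72820131-72820190 (minus). Exon and UTR annotation of that build was not used here.

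A level below is the log2 processed intensity of a probe minus the median log2 intensity of its array, so a level of 1 is a 2-fold excess over the median probe. Levels of different probes are not comparable with one another, and only differences between arrays for 1 probe are read. Middle-stage arrays were dimmer, with array medians of 8.05 to 28.1 intensity units and 48.5 to 71.5% of probes well above background, against 34.5 to 47.5 units and 68.8 to 78.1% at the early and 31.4 to 45.9 units and 68.4 to 73.7% at the late stage. The probes of 8 genes were well above background on all 27 arrays, that of EGR1 on 20 and that of FOSB on 2. Of 19 measured markers of stratified epithelium, 17, 15 and 17 were well above background on all 9 arrays of the early, middle and late stage, and KRT4 on none.

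Relative to the array median, DUSP1 and FOS fell from the early to the middle stage and rose again by the late stage. On that scale JUN and JUND moved the opposite way. In 1 limma model that held all arrays and an effect for each animal, 6 of the 10 genes were differentially expressed during the first period (3 higher and 3 lower), 8 during the second (4 and 4) and 2 over the total period (both higher). These counts stand against 66.5%, 71.5% and 20.1% of all 15008 probes, and against 61.8%, 68.2% and 25.9% of the 6797 probes well above background on every array, so the share of the group that changed was not far from that of the array as a whole. By direction, the first period had 45.3% of all probes higher and 21.3% lower, the second had 27% and 44.6%, and the total period had 11.2% and 8.93%. Of the bright probes 34.9% were higher and 26.9% lower, then 37.8% and 30.4%, and over the total period 18% and 7.94%. Over all probes the log2 fold change had medians of 0.32, −0.27 and 0.03, which depended on the scaling, since cyclic loess on the bright probes moved them to −0.61, 0.67 and 0.07.

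**Figure D1:**
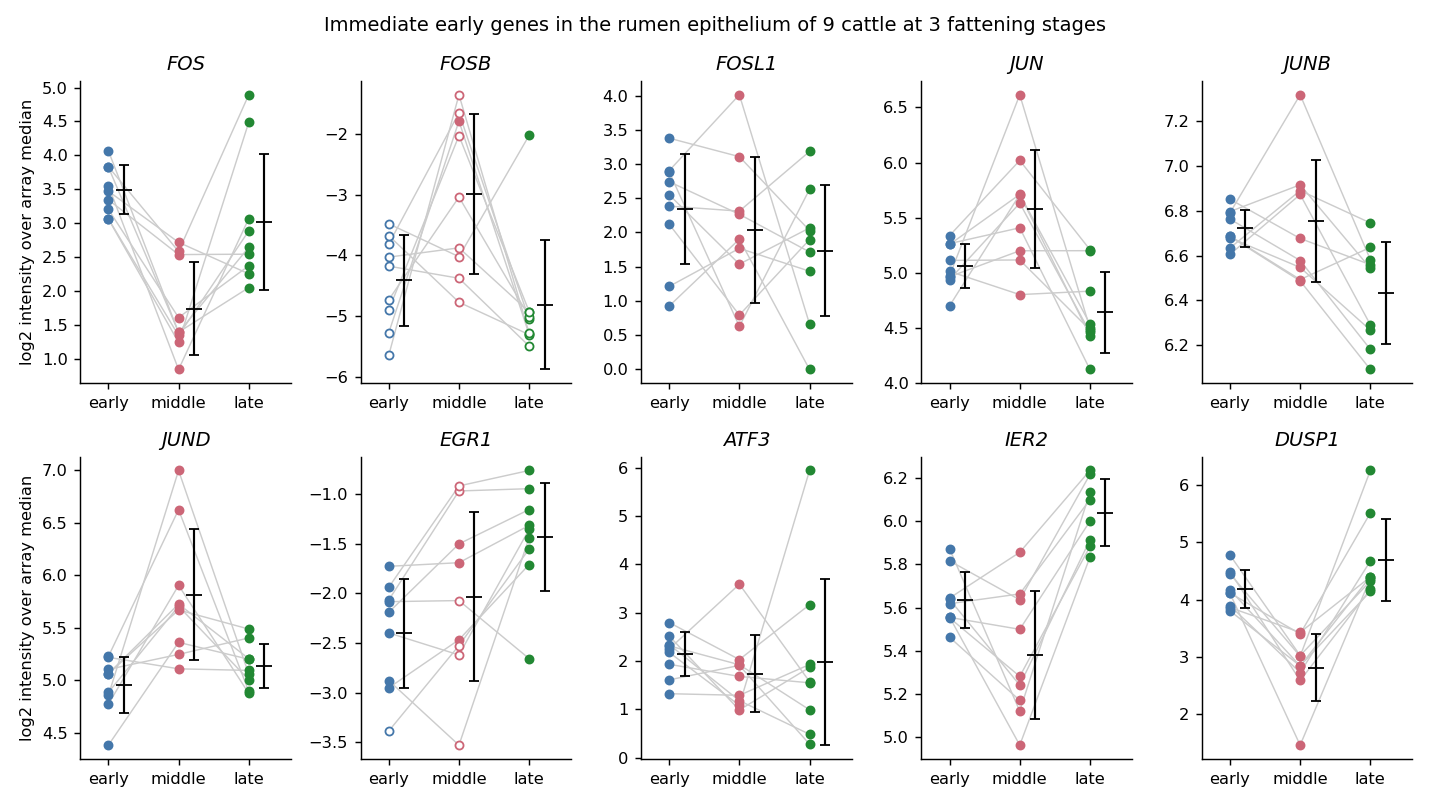
Level (log2 intensity over the array median, a scale of its own for each gene) of each gene at the early, middle and late stage. Each point is 1 biopsy, filled where the probe was well above background and open where it was not. Gray lines join the biopsies of 1 animal, and black bars give the mean ± SD (n = 9, 8 for IER2 at the late stage). FOS and DUSP1 were lowest at the middle stage, and 2 late biopsies stood above the rest for FOS, DUSP1 and ATF3.

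**Figure D2:**
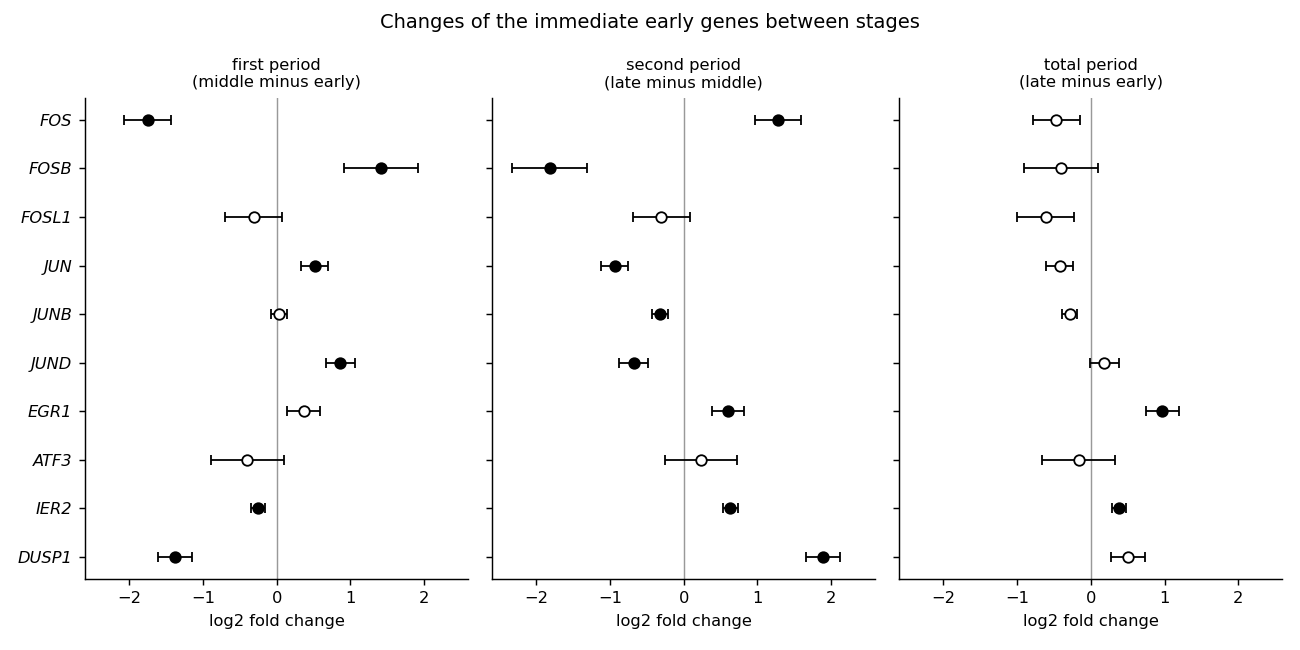
Log2 fold change ± SE of each gene in the first, second and total period, from the limma model that held an effect for each animal. Filled points had an adjusted P below 0.05 over 15008 probes. The signs of FOS, DUSP1 and IER2 were opposite to those of JUN, JUND and FOSB in the first and second periods, and FOSB was near background.

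DUSP1 levels ran from 3.80 over a median of 4.11 to 4.78 at the early stage, from 1.45 over 2.84 to 3.43 at the middle stage and from 4.14 over 4.40 to 6.26 at the late stage. The middle stage lay below both others without overlap, and the early and late stages overlapped. For 13% of all probes the early and middle stages did not overlap, for 20.7% the middle and late, and for 6.55% the early and late. The gene fell by 1.38 on the log2 scale during the first period (SE 0.23, limma adjusted *P* = 5.36e-05, lower in 9 of 9 animals), which is 2.59-fold, and rose by 1.88 during the second (SE 0.23, adjusted *P* = 1.06e-06, higher in 9 of 9 animals), which is 3.69-fold. Over the total period the change was 0.51 (SE 0.23, adjusted *P* = 0.129). The second-period rise held under every setting that could be run, at 1.66 to 2.08. In bulk tissue, fewer cells that express a gene and less RNA per cell cannot be told apart.

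FOS, the AP-1 subunit best known for rapid induction, ran from 3.07 over a median of 3.47 to 4.07 at the early stage, from 0.85 over 1.40 to 2.72 at the middle stage and from 2.05 over 2.65 to 4.89 at the late stage. All 9 middle biopsies lay below all 9 early ones, whereas middle and late biopsies overlapped. FOS fell by 1.75 on the log2 scale during the first period (SE 0.32, limma adjusted *P* = 0.000111, lower in 9 of 9 animals), a 3.36-fold change, and rose by 1.28 during the second (SE 0.32, adjusted *P* = 0.00136, higher in 8 of 9). The late biopsies of animals 3 and 5, at 4.89 and 4.49, were above every early biopsy, and the other 7 ran from 2.05 to 3.07. The total change was −0.47 (SE 0.32, adjusted *P* = 0.331), and −0.96 (adjusted *P* = 0.0387) without animals 3 and 5, a setting chosen after seeing the data.

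Arrays of 2 stages shared only slide 2, with 1 early and 7 middle arrays. These were the early array of animal 9 and the middle arrays of animals 1 to 7. No animal is thus compared with itself there, here or in the values within slide 2 below. Within it the middle arrays differed from the early one by −1.81 for FOS and −1.14 for DUSP1. In the model of all arrays, a fixed effect for each slide made the first-period change −0.82 (limma adjusted *P* = 0.732) and −0.78 (adjusted *P* = 0.647). For the second and total periods each slide held 1 of the stages compared, so slide and stage cannot be told apart there. Under cyclic loess, which turned the median of all probes, the first-period changes of FOS and DUSP1 were −1.64 and −1.32 and those of JUN and JUND 0.52 and 0.86. With a random slide block FOS was higher by 1.01 (adjusted *P* = 0.131) and DUSP1 by 1.71 during the second period.

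Levels of cell type markers were set beside these changes. The summed level of 19 epithelial markers ran from 11.9 to 12.3 at the early, 10.1 to 12.4 at the middle and 12.1 to 12.5 at the late stage. That of 8 smooth muscle markers ran from 6.85 to 8.65, 6.69 to 9.79 and 7.02 to 7.78. At each stage 3 of these 8 were above background on all 9 arrays, and none was below it on all arrays. The sum of 7 fibroblast markers ran from 6.47 to 9.55, 6.49 to 10.0 and 6.15 to 8.66. The 8 endothelial markers, with CDH5 not above background on any array, summed to 5.23 to 6.18, 5.55 to 6.68 and 5.64 to 6.33. All of these ranges overlapped between stages, but their medians differed. From early to late the epithelial median was 12.2, 11.4 and 12.2, and that of smooth muscle 7.48, 8.35 and 7.20. Those of fibroblasts were 8.12, 8.84 and 8.17, and those of endothelium 5.74, 6.08 and 5.84. Apart from animal 5 (12.4), the highest middle epithelial sum was 11.8 (animal 6), below every early and late one. The sum of 4 hemoglobin and heme genes of red blood cells (HBB, HBA, ALAS2 and AHSP) ran from 5.32 to 6.12 at the early, 6.73 to 7.64 at the middle and 5.53 to 6.53 at the late stage, so that every middle biopsy was above all early and late ones. Of these genes 2 were above background on all 9 arrays of each stage, while HBB and ALAS2 were not above background on any middle array. The 14 leukocyte markers, of which CD4 and ITGAM were not above background on any array, summed to 5.29 to 6.39, 5.20 to 6.01 and 5.51 to 6.39. Of the 14, 10, 5 and 10 were above background on all 9 arrays of the early, middle and late stage. CD79A was above it on no middle or late array. The part of these cells in the changes of the 10 genes was not tested.

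IER2 was the third gene with a middle-stage low and the only one of these higher at the late than at the early stage in all animals measured. Its levels ran from 5.46 over a median of 5.62 to 5.87 at the early stage, 4.96 over 5.28 to 5.86 at the middle stage and 5.83 over 6.05 to 6.24 in 8 late biopsies. The middle stage overlapped the early one widely and the late one only through 1 biopsy. IER2 fell by 0.25 during the first period (SE 0.10, limma adjusted *P* = 0.0316, lower in 7 of 9 animals), and rose by 0.63 during the second (SE 0.10, adjusted *P* = 2.26e-05) and by 0.38 over the total period (SE 0.10, adjusted *P* = 0.0116), higher in 8 of 8 animals in both.

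The fit dropped the late spot of animal 5, which the scanner software had marked as an outlier and which stood at 2.23. With that 1 spot kept, the rise of IER2 was 0.24 (adjusted *P* = 0.506) in the second period and the total change was −0.02 (adjusted *P* = 0.981). The total-period call was kept in 14 of 22 alternatives, and the rise was 0.26 under 75th percentile scaling (adjusted *P* = 0.0561), 0.22 under quantile normalization (adjusted *P* = 0.113), 0.20 under cyclic loess (adjusted *P* = 0.176), 0.64 under the normexp background correction (adjusted *P* = 0.201) and 0.41 with a random slide block (adjusted *P* = 0.342). The first-period call was the least stable of the group, since it was lost when animal 2, 4, 5, 6, 7 or 8 was left out, with adjusted *P* of 0.0520 to 0.106. Within slide 2 the change was −0.24 (adjusted *P* = 0.774), and a fixed effect for each slide turned it to 0.51 (adjusted *P* = 0.391).

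JUN, the main partner of the Fos proteins, ran from 4.70 over a median of 5.01 to 5.34 at the early stage, from 4.80 over 5.63 to 6.62 at the middle stage and from 4.12 over 4.50 to 5.21 at the late stage. The stages overlapped, with animal 4 highest at the middle stage and animals 3 and 5 (5.21 and 5.20) highest at the late stage. JUN rose by 0.52 during the first period (SE 0.18, limma adjusted *P* = 0.0184, higher in 8 of 9 animals) and fell by 0.94 during the second (SE 0.18, adjusted *P* = 0.000161, lower in 7 of 9). The first-period call was lost without animal 4 (0.38, adjusted *P* = 0.0540) and without animal 9 (0.46, adjusted *P* = 0.0521). Before scaling, JUN signals ran from 1179 to 1508 units at the early and from 685 to 1061 at the middle stage. The rise is thus one relative to the dimmer middle arrays. Unscaled JUND signals were also lower at the middle than at the early stage, except in animals 2 and 9.

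JUND, a Jun protein that many cells express without stimulation, ran from 4.38 over a median of 5.06 to 5.23 at the early stage, 5.11 over 5.71 to 7.00 at the middle stage and 4.88 over 5.09 to 5.49 at the late stage. The middle biopsies of animals 9 and 4 (7.00 and 6.62) stood above the other 7, which ran up to 5.90. It rose by 0.86 during the first period (SE 0.20, limma adjusted *P* = 0.000888, higher in 8 of 9 animals) and fell by 0.68 during the second (SE 0.20, adjusted *P* = 0.00469, lower in 8 of 9). Of the 27 arrays, that of animal 4 had the lowest array median (8.05) and that of animal 9 the lowest share of probes above background (48.5%). Without animals 4, 8 and 9, a setting chosen after seeing the data, the changes were 0.52 in the first period and −0.24 (adjusted *P* = 0.169) in the second.

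JUNB, which antagonizes JUN at some AP-1 sites, varied least of the 10 genes between biopsies at the early and middle stages. It ran from 6.61 over a median of 6.69 to 6.85 at the early stage, 6.49 over 6.68 to 7.32 at the middle stage and 6.09 over 6.54 to 6.75 at the late stage. The first-period change was 0.03 (SE 0.10, limma adjusted *P* = 0.799). JUNB fell by 0.32 during the second period (SE 0.10, adjusted *P* = 0.00995, lower in 8 of 9 animals). The total change was −0.29 (SE 0.10, adjusted *P* = 0.0568), also lower in 8 of 9. It stayed uncalled in 13 of 22 alternatives, among them normexp (−0.10, adjusted *P* = 0.859). The fall was called under 75th percentile scaling (−0.41, adjusted *P* = 0.00684), quantile normalization (−0.49, adjusted *P* = 0.00128) and cyclic loess (−0.48, adjusted *P* = 0.00189).

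The background correction changed the calls of the Jun genes. Under normexp the first-period changes were 0.047 for JUN (adjusted *P* = 0.887) and 0.38 for JUND (adjusted *P* = 0.270). With this correction in place of the scanner's own subtraction the second-period changes were −0.16 for JUN, 0.04 for JUND and 0.48 for JUNB, none of them called, while FOS (1.31) and DUSP1 (2.08) kept theirs. Within slide 2 the first-period changes were 0.85 for JUN (adjusted *P* = 0.442) and 0.78 for JUND (adjusted *P* = 0.420), and a fixed effect for each slide gave 0.72 (adjusted *P* = 0.607) and 1.61 (adjusted *P* = 0.140).

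EGR1, a zinc finger factor, was dim. Its levels ran from −3.39 over a median of −2.19 to −1.73 at the early stage, −3.53 over −2.07 to −0.92 at the middle stage and −2.66 over −1.36 to −0.76 at the late stage, and it was well above background on 8, 3 and 9 of 9 arrays. The lowest late biopsy was that of animal 9, while the other 8 lay at −1.71 or higher. EGR1 rose by 0.60 during the second period (SE 0.22, limma adjusted *P* = 0.0211, higher in 8 of 9 animals) and by 0.97 over the total period (SE 0.22, adjusted *P* = 0.00437, higher in 8 of 9), which is 1.96-fold. Since only 3 middle arrays had it well above background, the first-period change of 0.37 (adjusted *P* = 0.148) had no settled direction, and under cyclic loess it was −0.93 (adjusted *P* = 0.000560). The second-period call used all 9 middle values, most of which were not well above background. It was kept in 13 of 22 alternatives, was lost under 75th percentile scaling (0.41, adjusted *P* = 0.117), without the animal as a block (adjusted *P* = 0.0763), with a random slide block (adjusted *P* = 0.297), by the methods' t-test and without animal 5 (adjusted *P* = 0.0854) or animal 7 (adjusted *P* = 0.0648), and the change was −0.096 under normexp. The total rise was 0.12 (adjusted *P* = 0.382) under normexp and 0.64 (adjusted *P* = 0.543) with a random slide block.

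FOSB was well above background on 0 early arrays, on the middle array of animal 1 and on the late array of animal 5, where it stood at −2.03 against −5.49 to −4.92 in the other 8 late biopsies. Its measured means were −4.41 (SD 0.75), −2.99 (SD 1.31) and −4.81 (SD 1.06), and the lowest signal that counted as above background on the early arrays had a mean of −2.92, above all of these, so no fold is given. The model called the probe in the first (1.42, limma adjusted *P* = 0.0185) and second period (−1.82, adjusted *P* = 0.00331), and the sign turned in both under cyclic loess (−0.74 and 0.68).

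FOSL1 and ATF3 were called in no period. FOSL1, a Fos protein of migrating and injured epithelium, ran from 0.92 over a median of 2.55 to 3.38 at the early stage, 0.62 over 1.90 to 4.01 at the middle stage and −0.01 over 1.89 to 3.18 at the late stage. Its changes were −0.31 (SE 0.39, limma adjusted *P* = 0.491), −0.30 (SE 0.39, adjusted *P* = 0.495) and −0.61 (SE 0.39, adjusted *P* = 0.298). All 3 stages overlapped over most of their range.

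ATF3, a stress-induced repressor, ran from 1.32 over a median of 2.25 to 2.80 at the early stage, 0.99 over 1.68 to 3.59 at the middle stage and 0.28 over 1.57 to 5.94 at the late stage. Animal 5 at the late stage (5.94) and animal 9 at the middle stage (3.59) were far above the others of their stage. The late biopsies thus spanned 50.5-fold, against 2.77-fold for the early ones. Its changes were −0.40 (SE 0.49, limma adjusted *P* = 0.483), 0.23 (SE 0.49, adjusted *P* = 0.678) and −0.16 (SE 0.49, adjusted *P* = 0.872), and without animal 5 the second-period change was −0.34.

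The biopsies of 1 stage also differed among themselves. At the late stage the SD of the log2 level was 1.72 for ATF3, 1.00 for FOS, 0.96 for FOSL1 and 0.72 for DUSP1, against a median of 0.22 over 9821 probes above background on all 9 late arrays, and these SDs lay at the 99.9th, 99.2nd, 99.1st and 97.7th percentile of those probes. JUN (0.37), JUNB (0.23), JUND (0.21) and IER2 (0.15, n = 8) were far less spread. The IER2 value leaves out the outlier spot of animal 5, which stood at 2.23. At the early stage JUNB varied by only 0.08, at the 0.994th percentile, whereas FOSL1 varied by 0.81, at the 98.1st percentile.

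Spread was also compared between stages. The SD of ATF3 was 3.79 times as large at the late as at the early stage (exact within-animal permutation test, two-sided *P* = 0.0469, adjusted *P* = 0.234), that of FOS 2.78 times (exact *P* = 0.0586, adjusted *P* = 0.251), that of JUNB 2.77 times (exact *P* = 0.00781, adjusted *P* = 0.141) and that of DUSP1 2.18 times (exact *P* = 0.270, adjusted *P* = 0.578). Of 30 ratios, 0 had an adjusted *P* below 0.05 in this permutation test and 6 had an unadjusted *P* below 0.05, the smallest that 9 animals allow being 0.00391. Adjusted over 30 ratios, 1 ratio at that smallest *P* could not have passed 0.05 alone, so the 0 does not show equal spread. The median SD of bright probes was 0.23 at the early and 0.42 at the middle stage, so that middle biopsies were more spread over the array as a whole.

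**Figure D3:**
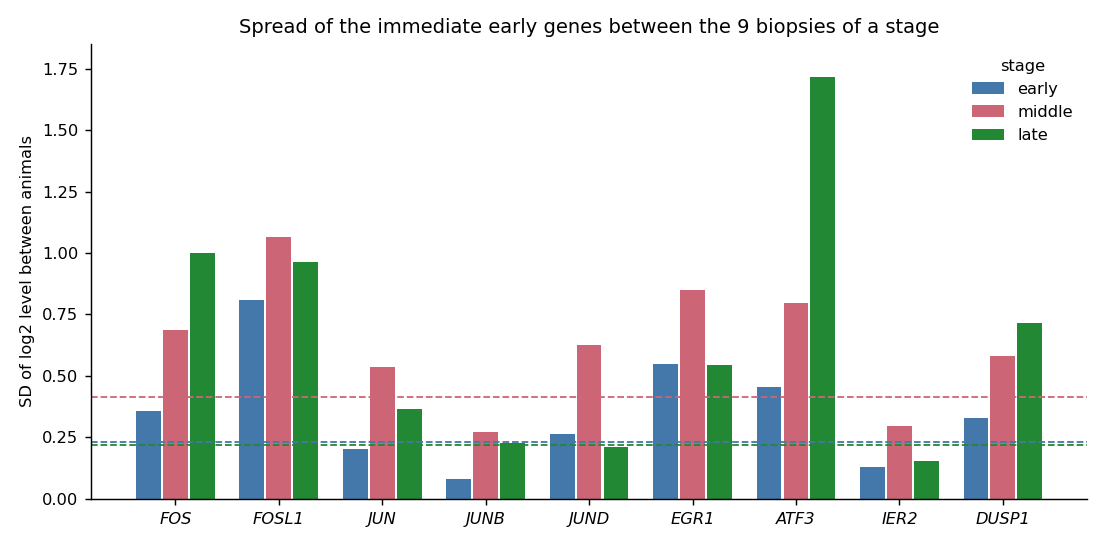
SD of the log2 level between the biopsies of a stage for the 9 genes other than FOSB (n = 9, 8 for IER2 at the late stage). Bars are the early (blue), middle (red) and late (green) stage, and dashed lines give the median SD of all probes above background on all 9 arrays of that stage (0.23, 0.42 and 0.22). ATF3 reached 1.72 at the late stage, whereas JUNB and IER2 stayed at or below 0.30, IER2 without the late outlier spot of animal 5.

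High values came together in the same biopsies. Over 9 genes (without FOSB), the late biopsy of animal 3 was the highest of its stage for 7, namely FOS, FOSL1, JUN, JUNB, JUND, IER2 and DUSP1, and it was among the 2 highest for 8. The late biopsy of animal 5 was highest for ATF3 and among the 2 highest for 7 of the genes. Over 9804 other bright probes, animal 3 was highest for 11.7% and animal 5 for 6.15%. At the middle stage the biopsy of animal 9 was highest for 6 of 8 genes, against 26.5% of 6785 other bright probes. At the early stage no biopsy was highest for more than 3 genes.

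The cell type markers of these late biopsies were set beside those of the others. Epithelial markers summed to 12.1 in animal 3 and 12.2 in animal 5 at the late stage, smooth muscle markers to 7.11 and 7.02, leukocyte markers to 6.04 and 6.02 and the hemoglobin and heme genes to 6.11 and 5.73, all within the range of the other late biopsies apart from the epithelial sum of animal 3 and the smooth muscle sum of animal 5, which were the lowest. Fibroblast markers summed to 7.44 in animal 3 and 8.31 in animal 5, and endothelial markers to 5.90 and 5.87, within the range of the others. The part of cell types in the high values of these biopsies was not tested. The arrays of animals 3 and 5 were on slide 4 with 6 other late arrays.

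**Figure D4:**
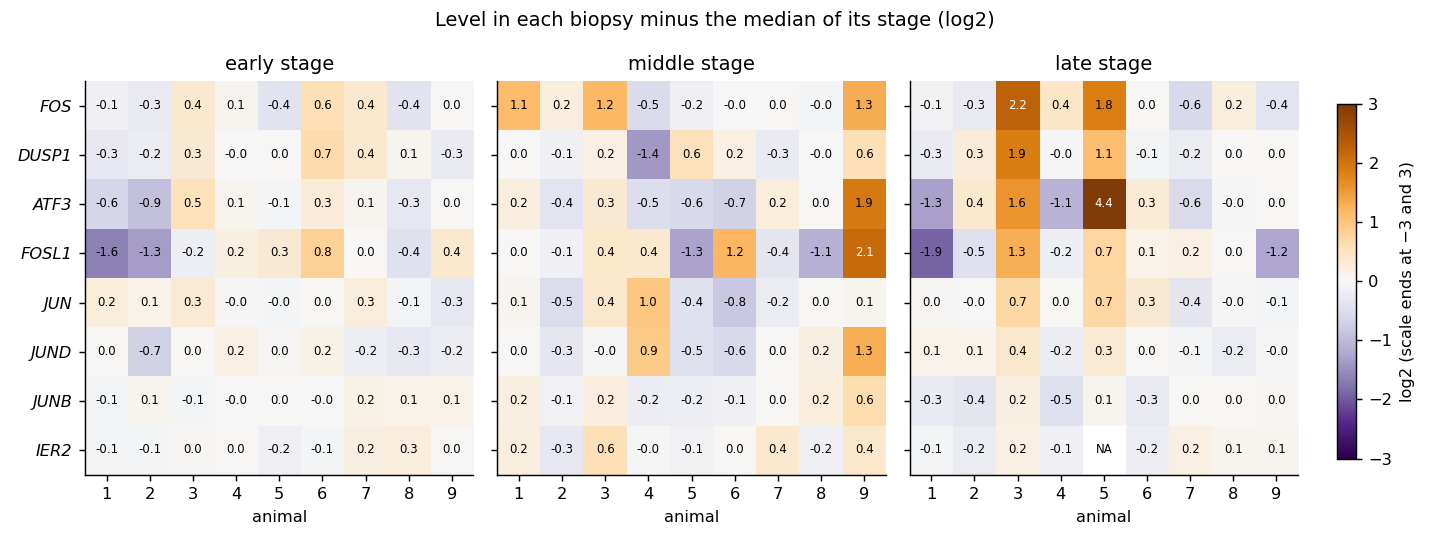
Level of 8 genes in each biopsy minus the median of its stage (log2 units, colors from purple for lower to orange for higher, ending at −3 and 3), with animals in columns and stages in panels. NA marks the IER2 spot left missing. At the late stage animals 3 and 5 were raised in FOS, DUSP1, ATF3, FOSL1 and JUN, and at the middle stage animal 9 was raised in FOS, ATF3, FOSL1 and JUND.

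Across the animals of a stage, the genes were correlated in pairs. The median Pearson r was 0.07 over 36 pairs at the early stage (25 above 0), 0.47 over 28 pairs at the middle stage (26 above 0) and 0.48 over 36 pairs at the late stage (33 above 0). The same genes had a median r with all other bright probes of −0.01, 0.18 and −0.01. Under normexp the early median was 0.85, without a median r with other bright probes under normexp to set beside it. Within the largest slide of a stage the medians were 0.10, 0.18 and 0.57. In all 100 pairs, 5, 6 and 13 had an unadjusted exact *P* below 0.05 at the 3 stages, and 0 had an adjusted *P* below 0.05 in the exact permutation test, for r or for Spearman's rho.

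At the late stage the relation rested on animals 3 and 5. FOS and DUSP1 had r = 0.92 (rho = 0.60, exact permutation *P* = 0.00562, adjusted *P* = 0.105), and r = 0.11 without the 2 biopsies farthest from the FOS median. FOS and JUN had r = 0.90 (rho = 0.82, exact permutation *P* = 0.00302, adjusted *P* = 0.105), and 0.51 without them. Without animals 3 and 5 the median r of the late pairs was −0.0019, a setting chosen after seeing the data. JUNB and IER2, measured together in 8 late biopsies, had r = 0.92 (rho = 0.86, exact permutation *P* = 0.00352, adjusted *P* = 0.105), and 0.93 without the 2 biopsies farthest from the JUNB median. At the middle stage JUNB and ATF3 were the closest pair, with r = 0.94 (rho = 0.82, exact permutation *P* = 0.00114, adjusted *P* = 0.105) and 0.90 without the 2 farthest.

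**Figure D5:**
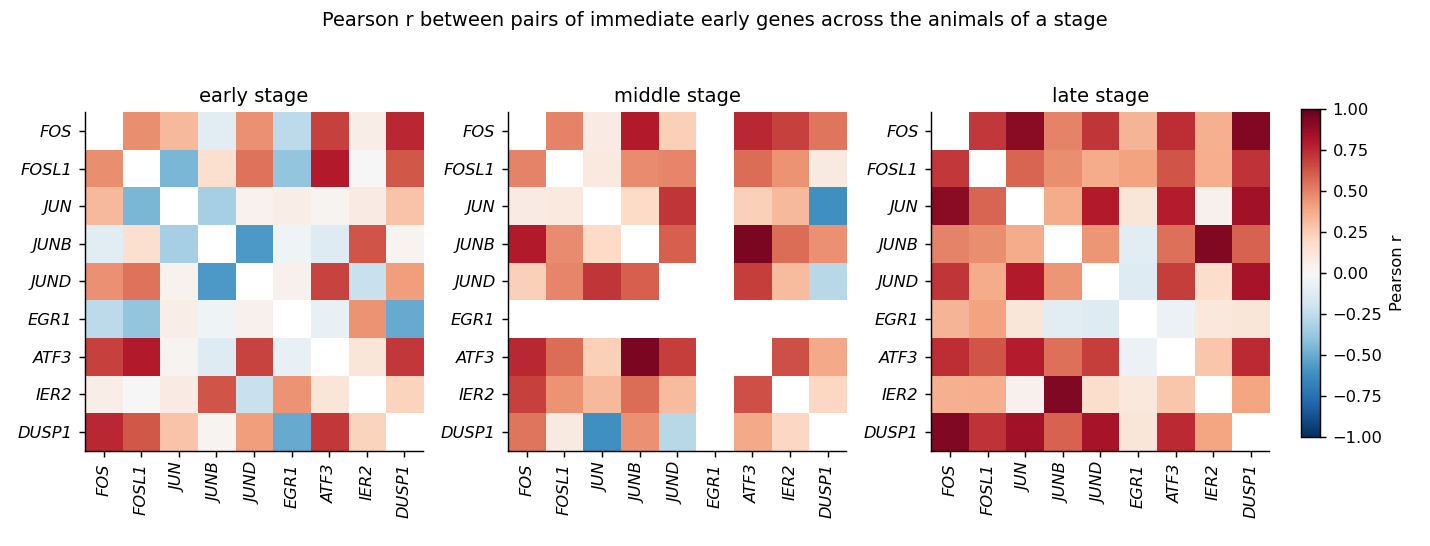
Pearson r between pairs of genes over the 9 animals of a stage (8 for pairs with IER2 at the late stage), from −1 (blue) to 1 (red). FOSB is left out throughout and EGR1 at the middle stage, where they were above background on fewer than 6 arrays. The median r was 0.07, 0.47 and 0.48 from left to right.

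Levels were also compared between stages across animals. Over 30 correlations of a gene between 2 stages across animals, 22 were above 0 with a median r of 0.14, 3 had an unadjusted exact permutation *P* below 0.05 and 0 an adjusted one, the smallest being 0.418.

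The genes outside the group most like each member were sought among 6757 probes by r over the 27 arrays. The arrays share their slides and stages, so this is a description. Over levels, DUSP1 was nearest to SMU1 (r = 0.90) and KLF4 (0.89), FOS to ABCC3 and CLDN4 (0.80 each), IER2 to NDUFB8 and IST1 (0.89 each), JUN to TCEA1 (0.90) and PPM1A (0.89), JUND to BRD2 and HSPA13 (0.88 each), JUNB to IL18BP and GJB1 (0.74 each), FOSL1 to RELB and NOP2 (0.75 each), EGR1 to PGAP3 (0.87) and HTR1D (0.85), and ATF3 to CSRNP1 (0.71) and TRIB1 (0.58). Within the group FOS and DUSP1 had r = 0.82 and JUN and JUND 0.70, while DUSP1 and JUN had −0.56.

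Once the stage means were taken out, other names came first, except for ATF3 and EGR1. Members were again left out of the search. FOS had a higher r with the members DUSP1 (0.78) and ATF3 (0.73) than with any gene named for it here. FOS and ATF3 were both nearest to CSRNP1 (0.71 and 0.73), a nuclear protein of the immediate early class, and DUSP1 was nearest to TRIB1 (0.81), which was also second for FOS (0.66). FOSL1 was nearest to TNFRSF12A (0.87), the receptor of the cytokine TWEAK, and NOP2 (0.85). RND3 (0.79) was second for DUSP1, and OSGIN1 (0.63) for ATF3. JUND was nearest to RCAN1 and BRD2 (0.79 each), JUN to USP48 (0.87) and COQ10B (0.82), JUNB to NGDN (0.76) and SPTAN1 (0.72), EGR1 to PGAP3 (0.83) and NCLN (0.82), and IER2 to SLC37A1 (0.76) and MST1R (0.73).

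Other immediate early genes moved both ways, as did the probes of the array as a whole. Of 59 measured of 66 listed, 14 rose and 18 fell during the first period, 18 rose and 20 fell during the second, and 3 rose and 6 fell over the total period, with median log2 fold changes of 0.09, −0.12 and −0.08. Of all probes 45.3% were higher and 21.3% lower in the first period. The second period had 27% and 44.6%, and the total period 11.2% and 8.93%. These shares stand beside the counts of the lists below as well, and no list was tested as a set. Under cyclic loess 2 rose and 36 fell during the first period, and 28 rose and 10 fell during the second. That scaling moved the median of all probes to −0.61 and 0.67 in these periods. Counts under it, here and for the lists below, are therefore not read as results of a list. KLF4, a differentiation factor of stratified epithelium, had the pattern of DUSP1, falling by 1.67 (limma adjusted *P* = 1.30e-05) and rising by 2.06 (adjusted *P* = 6.31e-07). Genes of the lists were named only if all 9 animals changed the same way, so that agreement is no added support. NAB2, a corepressor of EGR1, had the opposite pattern, with a rise of 1.07 and then a change of −1.28.

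Among the other named genes of that list, ADAMTS1, a secreted protease, rose by 1.07 and PLAUR, the urokinase receptor, fell by 1.77 during the first period. AREG, an EGF receptor ligand listed as LOC538751 in the array design, rose by 2.25 during the second period, while THBS1, a matrix glycoprotein above background on 5 middle and 4 late arrays of 9, fell by 1.95. Over the total period NR4A1, an orphan nuclear receptor, rose by 0.44, THBS1 fell by 1.54 and PPP1R15A, a stress-induced phosphatase subunit above background on 1 late array, fell by 1.23. Each of these changes ran the same way in 9 of 9 animals, as the rule for naming them required.

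Of 26 measured other AP-1, ATF and CREB family genes (28 listed), 11 rose and 5 fell during the first period, 8 rose and 12 fell during the second, and 5 rose and 3 fell over the total period. Under cyclic loess 6 rose and 14 fell, then 17 rose and 7 fell. DDIT3, a factor of the unfolded protein response, rose by 1.28 and ATF6B by 1.05 during the first period, in which NFIL3 fell by 1.46. CREBL2 was at least 1.13-fold lower at the middle than at the early stage (limma adjusted *P* = 3.06e-07), since no middle array had it well above background. During the second period NFIL3 rose by 1.75, ATF6B fell by 1.39, and CREB3, a membrane-bound factor, fell by 3.09 (limma adjusted *P* = 1.48e-12), and CREBL2 was called higher, with no fold given for the same reason. Over the total period ATF1 rose by 0.52 and CREB3 fell by 2.17.

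Of 43 measured genes of the MAP kinase pathway and of factors acting on immediate early promoters (47 listed), 14 rose and 16 fell during the first period, 18 rose and 9 fell during the second, and 6 rose and 3 fell over the total period. MAP2K1, a kinase that activates ERK, fell by 1.69 (limma adjusted *P* = 3.07e-09) and rose by 1.68 (adjusted *P* = 8.40e-10), the directions in which DUSP1 moved. MAP3K11, a kinase upstream of JNK that was above background on 3 late arrays, fell by 3.24 during the second and by 2.46 over the total period. MAP3K4 rose by 0.87 and MKL1, a coactivator of serum response factor, by 0.59 during the first period, MAP2K5 rose by 1.24 and MAP2K4 fell by 0.96 during the second.

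Of the JNK genes, MAPK8 was called lower during the first period, with no fold given since no middle array was above background, and fell by 1.08 over the total period, with 5 late arrays above background, whereas MAPK9 rose by 0.75 over the total period, in which MAPK3, which encodes ERK1, rose by 0.64. Under cyclic loess the pathway list had 6 higher and 25 lower, then 26 higher and 5 lower. Of 8 measured other MAP kinase phosphatases (9 listed), 2 rose and 2 fell, then 1 rose and 3 fell, and over the total period 1 rose and 2 fell. DUSP9 rose by 0.53 in the first and by 0.77 over the total period, and DUSP7 fell by 0.70 over the total period. Under cyclic loess 0 phosphatases rose and 7 fell in the first period, and 6 rose and 1 fell in the second.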

How the data were processed

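RNA of 27 RE biopsies was labeled with cyanine 3 and hybridized by the authors, and the deposited intensity values are the processed signals of Agilent Feature Extraction (11.0.1.1 in the file headers, 9.5 per the labels), which subtracts local background. The deposited flags for spots above background or outlying are 0 or 1, as other values of the software. The deposited series matrix holds log2 values that the authors set to the 75th percentile of each array (column medians of −3.07 to −2.60, match within 0.0207), and it was an alternative only. The extraction label names neutrophil and liver RNA, whereas every tissue label and the methods name RE, as which the arrays were read. Genes are named as in the array design. Values were log2 signal minus the array median, with 103 outlier spots missing. The analysis used R 4.3.3, limma 3.58.1 and statmod 1.5.0, with 1 mean per stage, the animal as a block, empirical Bayes and Benjamini-Hochberg adjustment over 15008 probes. Genes were called at an adjusted *P* below 0.05. The labels number the arrays 1 to 9 within each stage and name no animal. Arrays of the same number were read as the same animal, and every paired change and count of animals rests on this reading. With stage means removed, 2 arrays of the same number correlated at 0.23 on average (−0.15 to 0.72, above 0 in 23 of 27 pairs). Arrays of different numbers correlated at −0.03.

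All 10 genes were to be named, with, per list and period, the 2 largest rises and the 2 largest falls that were called, ran the same way in all 9 animals and passed background in all 9 biopsies of a stage, and the 2 nearest genes for members above background on at least 20 arrays. The 10 genes, the lists and the tests were chosen with earlier results of these data known. Procedures were tested on simulated data. Precision is limited by 9 arrays a stage. Alternatives were 75th percentile scaling, quantile normalization, cyclic loess, normexp (offset 50), filters on dim probes, outlier spots kept, the series matrix, no animal block, slide as a block, slide 2 alone, 2 stages in the fit, the methods' t-test and each animal left out. The authors' pathway scores were not used here. The result for 1 marker gene is not reported here.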

Additional observations from a re-analysis of the deposited data

Results flagged for a closer look

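In 4 of 30 groups of 9 biopsies (8 for IER2 at the late stage) the highest or lowest biopsy stood apart from the others by Dixon's criterion, which chance meets in about 1 of 20 groups. FOSB was −2.03 in animal 5 at the late stage, ATF3 was 3.59 in animal 9 at the middle stage, EGR1 was −2.66 in animal 9 at the late stage, and DUSP1 was 1.45 in animal 4 at the middle stage. Of all arrays, the middle array of animal 4 had the lowest median and that of animal 9 the lowest share of probes above background. The late ATF3 value of animal 5 (5.94) did not meet the criterion, since animal 3 was also raised.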

How the results depend on the processing

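Of 681 single-gene values under the alternatives, 577 kept their direction and side of the threshold, 61 lost significance, 16 gained it and 27 turned sign. Members called in the first period numbered 0 with a fixed slide block and 0 within slide 2 (limma, 1 each at an unadjusted *P* below 0.05), and 3 without animals 4, 8 and 9. In the second period they numbered 4 under normexp, 5 with a random slide block and 5 without animals 4, 8 and 9. Over the total period they numbered 0 under normexp and 0 with a random slide block (2 and 1 at an unadjusted *P* below 0.05), 1 with outlier spots kept, 4 with 2 stages in the fit and 4 by the methods' t-test. Without the animal as a replicate block 6, 7 and 2 were called. Leaving out each animal gave 4 to 6, 7 to 8 and 2 to 3 calls, 0 spread ratios (8 animals allow no exact *P* below 0.00781, so this says nothing of stability), and median correlations of 0.05 to 0.24 (early), 0.20 to 0.60 (middle) and 0.32 to 0.63 (late). The early median was 0.85 under normexp, and the late median was −0.0019 without animals 3 and 5. Over all probes, limma called 1238 with a fixed slide block and 7 within slide 2.

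In the first period JUNB turned to −0.055 under quantile normalization, −0.58 under normexp, −0.14 within slide 2, −0.030 without animal 9 (up to 0.060 without animal 4) and −0.027 without animals 4, 8 and 9. FOSB turned to −0.74 and EGR1 to −0.93 under cyclic loess, and EGR1 to −0.10 within slide 2. The slide as a fixed block gave 2.18 for FOSL1, −0.67 for EGR1, 0.76 for ATF3 and 0.51 for IER2. In the second period normexp gave 0.24 for FOSL1, 0.48 for JUNB, 0.037 for JUND and −0.10 for EGR1, and cyclic loess 0.68 for FOSB. FOSL1 was 0.080 without animal 9 (down to −0.59 without animal 5) and 0.014 without animals 4, 8 and 9. ATF3 was −0.16 with the slide as a random block, −0.34 without animal 5 (0.51 at the other end of the single omissions) and −0.55 without animals 3 and 5. Over the total period JUND was −0.000924 under cyclic loess, ATF3 0.10 under normexp and 0.047 without animal 4 (down to −0.65 without animal 5), and IER2 −0.018 with outlier spots kept and −0.14 in the series matrix, which keeps them. The cause of the other changes was not tested. Each gene had 1 probe, so the choice among probes could not be run. The slide as a fixed block could be fitted only for the first period. The omission of several animals was chosen after seeing the data.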
